A study of Mus musculus with 4 samples.

Results

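The genes that make sterols and fatty acids were followed in mouse E14 embryonic stem cells given valproic acid (VPA), a branched-chain carboxylic acid used as a histone deacetylase inhibitor. The members were 30 gene names chosen by pathway, from the start of the mevalonate route to cholesterol, the regulators of that route, and the enzymes of fatty acid synthesis. They were chosen with earlier results of these data known. A member was measured where a probe set of the array carried its symbol and no other, and where several did, the probe set with the highest mean signal stood for the gene. By this rule 29 of the 30 names were measured, among 19938 genes represented on the array. Acat2, the thiolase at the head of the sterol route, was not analysed here.

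The series holds 4 one-colour arrays of total RNA. Of these, 2 came from untreated E14 cells, also labelled 4 h, and 2 from E14 cells kept for 4 h in 0.5 mM VPA. The comparison thus asks which genes differ after a brief exposure. Cells of both groups grew on primary embryonic fibroblasts stopped from dividing by mitomycin C, in medium with fetal serum and leukemia inhibitory factor. Both thus had lipid from serum, and the arrays may hold RNA of 2 cell types. The labels call the arrays of a group replicates without saying that they came from separate cultures, so a p-value here reflects array to array spread alone, which could be technical. The arrays did not sort cleanly by group over all probe sets. The SD of the log2 difference was 0.311 between the untreated arrays, 0.297 and 0.301 between untreated replicate 1 and the VPA arrays, and 0.285 between the VPA arrays.

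Cholesterol is built from acetyl-CoA by way of mevalonate, isoprenoids, squalene and lanosterol. Its genes are switched on together by SREBP2 and fatty acid genes mainly by SREBP1, transcription factors held in the endoplasmic reticulum until SCAP carries them to the Golgi for cutting. Insig proteins hold SCAP back when sterol is plentiful, which closes the feedback loop. SREBPs bind weakly alone and work beside NF-Y, which recognises the CCAAT box, and Sp1, which recognises GC boxes.

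With VPA, the clearest difference among the members was in Insig2, which encodes one of the proteins that hold SCAP back: its mean was 1.92-fold the untreated mean. The next were Sc5d and Ebp, enzymes of the late route from squalene to cholesterol, the cholesterol carrier gene Stard4, and the late enzyme gene Hsd17b7, with log2 differences of 0.60, 0.58, 0.49 and 0.48. The transcription factor genes Srebf1 and Srebf2 lay within 0.031 of their untreated means on the log2 scale. The 6 measured fatty acid synthesis genes had a median log2 difference of −0.028, which was −0.097 after a second quantile normalization and 0.019 without untreated replicate 2. None of these differences passed the test across all probe sets.

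That test was limma's moderated fit over all 35556 probe sets, with Benjamini-Hochberg adjustment over all of them and a threshold of 0.05 on the adjusted p. It called 0 probe sets (0%), 0 of them members, and the smallest adjusted p was 0.462, which Insig2 shared. At an unadjusted p under 0.05 in the same fit, 7 of 29 members were higher with VPA, where 5.76% of all probe sets and 5.9% of represented genes were, and 0 were lower, where 3.43% of probe sets and 2.71% of represented genes were. A second quantile normalization took the counts over all probe sets from 2049 higher and 1220 lower to 1670 and 1542, and the members higher to 5. These 7 were Lss, Hsd17b7, Ebp, Sc5d, Dhcr7, Insig2 and Stard4. With each array left out in turn, the log2 differences of these 7 stayed above 0. Their lowest values in these reduced sets were 0.25 for Lss and Dhcr7, 0.31 for Stard4 and 0.35 for Hsd17b7. For Ebp, Sc5d and Insig2 they were 0.38, 0.40 and 0.80. A count of members at this p is not given here for the reduced sets, where 1 group holds 1 array.

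A plainer count is of genes whose groups did not overlap on the log2 scale. Both VPA arrays lay above both untreated arrays for 17 members and below them for 1, Scap, against 21.7% and 18.7% of all probe sets and 24.1% and 18.1% of represented genes. All members were well expressed, between percentiles 68.4 and 94.7 of probe sets by mean signal, and bright genes as a whole leaned upward with VPA. Among the 7312 represented genes at least as bright as the dimmest member, 35.9% lay above without overlap and 15% below, and 10.4% and 3.16% were higher or lower at an unadjusted p under 0.05. The median log2 difference was 0.122 over the members, 0.080 over these bright genes and 0.015 over all represented genes. The mean was higher with VPA for 20 of 29 members, for 4765 of these 7312 bright genes and for 53.7% of all represented genes. After a second quantile normalization the median was 0.078 over the members and 0.024 over the bright genes. Then 13 members lay above without overlap and 4 below, and 2085 and 1558 of the 7312 bright genes did so.

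**Figure D1:**
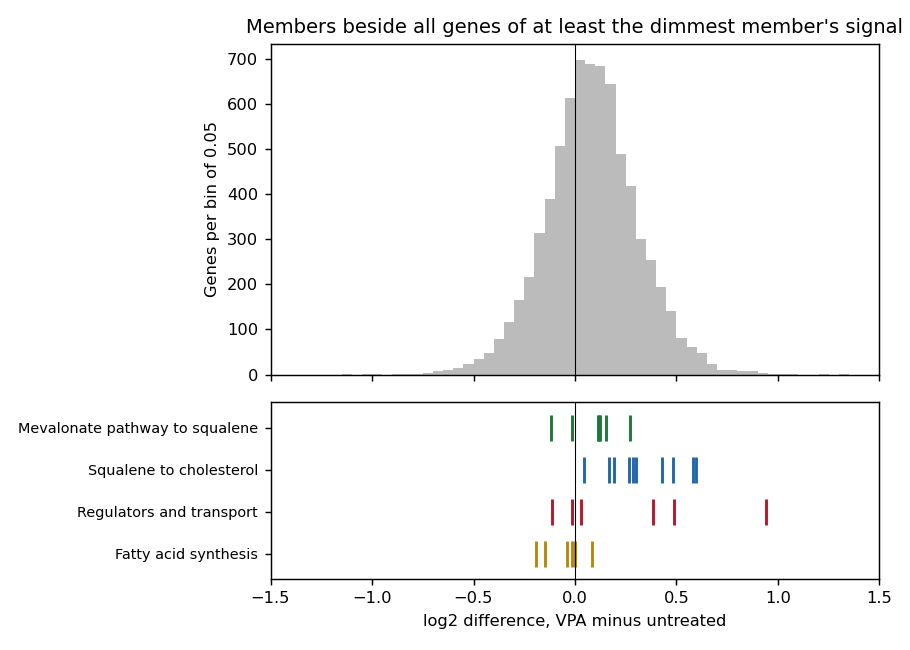
The upper panel counts genes (y axis, per bin of 0.05) by their log2 difference, VPA minus untreated (x axis), for the 7312 represented genes at least as bright as the dimmest member. In the lower panel each tick is a member, and the ticks of the squalene to cholesterol enzymes run from 0.046 to 0.60, all above 0, though Cyp51 falls below 0 after a second quantile normalization.

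To show what the promoters of these genes hold, the 250 bases before the start site were read for 4 short motifs on both strands. The motifs were the CCAAT box (CCAAT), the GC box (GGGCGG), the E-box CACGTG, which SREBPs can also bind, and TCACNCCAC, the core of the sterol regulatory element, where N is any base. RefSeq promoters of GRCm38.p6 matched 23 measured members, with 1 window taken for each, the one nearest the 5′ end of the gene. Shown here are Insig2 and the 3 sterol enzymes of largest difference, picked after their values were seen, and Hmgcs1, the member with the sterol regulatory element core. Capitals mark the CCAAT box (ATTGG where it is on the other strand), the E-box and, in Hmgcs1, the sterol regulatory element core; the GC box is not marked. No capitals of different motifs overlap.
Insig2 (chr1:121332590-121332839, minus strand): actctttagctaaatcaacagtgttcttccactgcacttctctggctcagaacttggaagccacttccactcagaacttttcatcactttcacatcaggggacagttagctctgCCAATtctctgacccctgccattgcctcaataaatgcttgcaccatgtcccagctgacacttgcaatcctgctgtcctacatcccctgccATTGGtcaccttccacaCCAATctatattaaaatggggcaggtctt
Sc5d (chr9:42264301-42264550, minus strand): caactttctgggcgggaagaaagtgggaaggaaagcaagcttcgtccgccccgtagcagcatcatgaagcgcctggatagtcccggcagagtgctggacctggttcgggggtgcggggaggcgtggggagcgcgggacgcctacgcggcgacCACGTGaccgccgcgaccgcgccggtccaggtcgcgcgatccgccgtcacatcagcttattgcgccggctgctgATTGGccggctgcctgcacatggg
Ebp (chrX:8193513-8193762, minus strand): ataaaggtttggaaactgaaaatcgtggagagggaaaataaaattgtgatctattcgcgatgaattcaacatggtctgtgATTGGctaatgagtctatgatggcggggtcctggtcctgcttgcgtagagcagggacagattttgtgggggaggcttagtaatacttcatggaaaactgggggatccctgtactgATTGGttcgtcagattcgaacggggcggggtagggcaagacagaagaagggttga
Hsd17b7 (chr1:169969206-169969455, minus strand): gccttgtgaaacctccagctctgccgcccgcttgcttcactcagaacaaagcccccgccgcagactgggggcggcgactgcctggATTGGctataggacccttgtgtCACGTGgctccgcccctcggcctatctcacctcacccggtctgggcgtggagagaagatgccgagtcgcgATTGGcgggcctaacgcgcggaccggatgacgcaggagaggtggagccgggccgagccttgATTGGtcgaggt
Hmgcs1 (chr13:119690101-119690350, plus strand): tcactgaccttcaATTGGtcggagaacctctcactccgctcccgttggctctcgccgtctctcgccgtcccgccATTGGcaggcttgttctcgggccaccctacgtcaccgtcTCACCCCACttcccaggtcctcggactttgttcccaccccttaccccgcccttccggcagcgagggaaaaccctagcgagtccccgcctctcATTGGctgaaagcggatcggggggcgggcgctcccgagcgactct

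In these windows, the CCAAT boxes of Insig2 begin 136, 46 and 29 bases before the start site, and those of Hsd17b7 165, 73 and 12 bases before it. Ebp has CCAAT boxes 170 and 55 bases before the start, and Sc5d has a single one at 24 bases with an E-box at 98. The element core of Hmgcs1 lies 137 bases before the start. A CCAAT box was present in 18 of 23 member windows (78.3%), against 33.8% of all 32851 promoter windows and 37.6% of the windows of represented genes as bright as the members. By role, it was in 5 of 5 windows of the mevalonate group, 8 of 9 of the squalene to cholesterol group (not Dhcr7), 4 of 5 of the regulators (not Scap) and 1 of 4 of the fatty acid group (Fasn).

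The GC box was in 16 of 23 member windows (69.6%), against 32.7% of all windows and 64.5% of those of bright genes, so by that measure the members were close to other bright genes. All 9 squalene to cholesterol windows held it, and the Insig2 window did not. The E-box was in Hsd17b7, Sc5d and Insig1, 13% of member windows, against 6.02% of all windows and 9.74% of those of bright genes. The element core was in Hmgcs1 alone, 4.35% of member windows, against 1.05% of all windows and 1.01% of those of bright genes. Insig2 has 3 promoter windows in the table, and the array does not tell which of them was in use. These matches describe letters in a window and say nothing of binding.

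The mevalonate group leads from acetoacetyl-CoA to squalene. Hmgcs1, HMG-CoA synthase, makes HMG-CoA, the precursor of mevalonate. Its log2 signal was 9.23 and 8.99 on the untreated arrays and 9.35 and 9.42 on the VPA arrays, a difference of 0.27 ± 0.13 (SE). The groups did not overlap, but the difference was 0.15 without untreated replicate 2, the lowest of the 4 arrays for this gene. Idi1 (isopentenyl diphosphate isomerase), Fdps (farnesyl diphosphate synthase) and Fdft1 (squalene synthase) were each higher on both VPA arrays, with log2 differences of 0.12, 0.11 and 0.12 that were about as large as their SE of 0.11.

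The 3 kinase and decarboxylase steps between mevalonate and isopentenyl diphosphate did not separate the groups. Mvk, mevalonate kinase, read 5.57 and 5.44 in untreated cells and 5.49 and 5.29 with VPA, a log2 difference of −0.12 ± 0.13 (SE). Pmvk, the next kinase, differed by −0.015 ± 0.12 and Mvd, the decarboxylase, by 0.15 ± 0.14. Over the 7 measured genes of this group the median log2 difference was 0.12, 5 means were higher and 2 lower, and 0 passed an unadjusted p of 0.05. Means were higher for 53.7% of represented genes and for 4765 of the 7312 bright ones. The second probe sets of Idi1 and Fdft1 gave 0.047 and 0.087. Without VPA replicate 1 the group's median was 0.065.

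**Figure D2:**
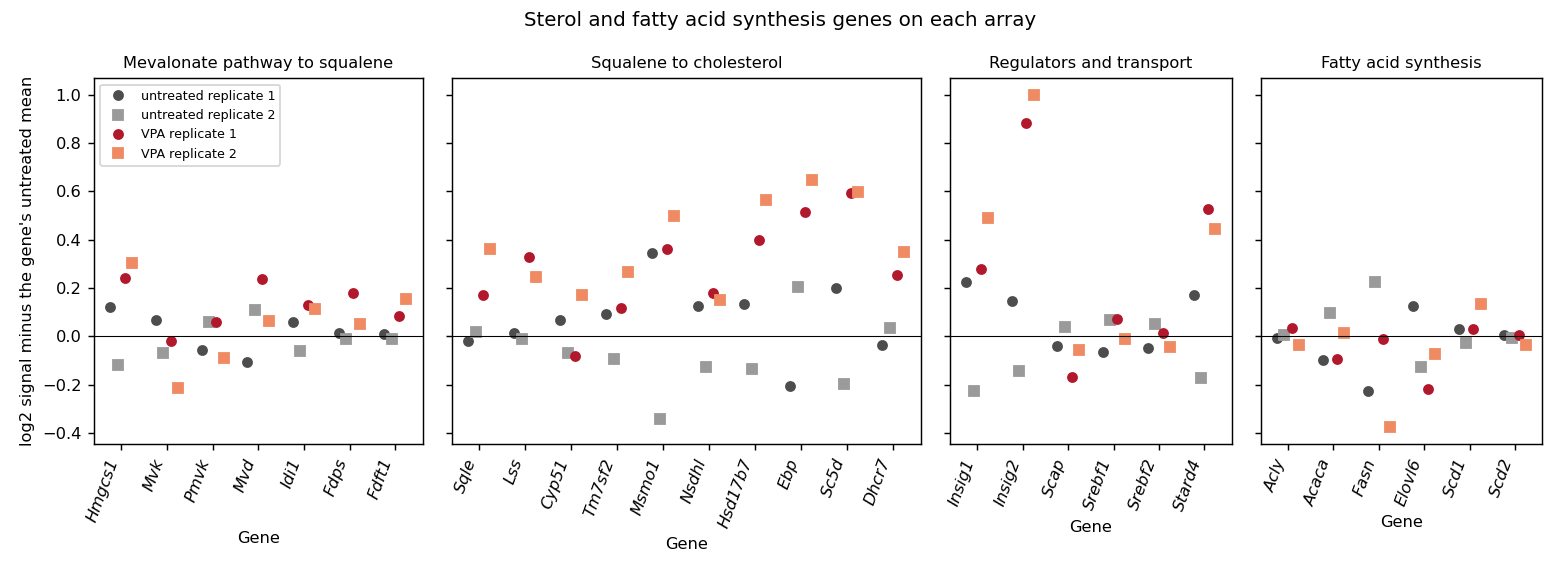
Each point is the log2 signal of a gene on an array minus that gene's mean over the 2 untreated arrays (y axis), for the 29 members in pathway order (x axis), with untreated arrays in grey and VPA arrays in red and orange. For Insig2 the VPA points stand at least 0.736 above the higher untreated point, while the fatty acid genes scatter around 0 in both groups.

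The late sterol enzymes turn squalene into cholesterol. Their median log2 difference was 0.29. All 10 means were higher with VPA, where 53.7% of represented genes and 4765 of the 7312 bright ones were. After a second quantile normalization 9 means were higher, with Cyp51 at −0.032, and so were 3973 of the bright genes. As deposited, 9 of 10 lay above without overlap, where 24.1% of represented genes and 35.9% of the bright ones did. That count was 7 after the second normalization and also after centring each array, where 2085 and 2458 of the 7312 bright genes lay above. The median was between 0.28 and 0.36 with each array left out. At an unadjusted p under 0.05 there were 5 of the 10 (3 after the second normalization), where 5.9% of represented genes and 10.4% of those as bright as the members were higher.

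Sqle, squalene epoxidase, commits squalene to sterols. It read 8.07 and 8.11 in untreated cells and 8.26 and 8.45 with VPA, a log2 difference of 0.26 ± 0.12 (SE). Lss, which closes the ring to give lanosterol, read 7.72 and 7.69 untreated and 8.03 and 7.95 with VPA, a difference of 0.29 ± 0.11. In both genes the untreated arrays lay closer together than the VPA arrays and below them.

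Lanosterol then loses 3 methyl groups. Cyp51, the demethylase that removes the first, read 6.68 and 6.54 untreated and 6.53 and 6.78 with VPA, so its groups overlapped. Tm7sf2, a sterol reductase, was 0.19 ± 0.13 (SE) higher on the log2 scale. Msmo1, the methyl sterol oxidase, read 9.46 and 8.78 untreated and 9.48 and 9.62 with VPA. Its log2 difference of 0.43 ± 0.25 rested on the low untreated replicate 2, and without that array it was 0.086. Nsdhl, the dehydrogenase of the same step, differed by 0.17 ± 0.13 and by 0.039 without that array.

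Hsd17b7, the 3-keto sterol reductase that completes this demethylation, read 6.87 and 6.61 untreated and 7.14 and 7.30 with VPA. Its log2 difference was 0.48 ± 0.14 (SE), with an adjusted p of 0.503 in limma, and the lowest VPA array stood 0.263 above the highest untreated one. It lay between 0.35 and 0.61 with each array left out.

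Ebp, the isomerase that shifts the double bond of the sterol ring, read 6.003 and 6.41 untreated and 6.73 and 6.86 with VPA. The log2 difference was 0.58 ± 0.17 (SE), with an adjusted p of 0.502. Here untreated replicate 1 was the lower of the untreated arrays, and without it the difference was 0.38.

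Sc5d, the desaturase that acts after Ebp, read 6.60 and 6.20 untreated and had a mean of 6.999 with VPA, the arrays lying within 0.002 of each other. This was the largest difference among the sterol enzymes, 0.60 ± 0.16 (SE) on the log2 scale, with an adjusted p of 0.487. Leaving out arrays moved it between 0.40, with untreated replicate 2 omitted, and 0.80, with its partner omitted.

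Dhcr7, which makes cholesterol from 7-dehydrocholesterol, read 6.47 and 6.54 untreated and 6.76 and 6.85 with VPA. Its log2 difference of 0.30 ± 0.11 (SE) varied little with the arrays used, from 0.25 to 0.35. Unlike those of Sc5d and Msmo1, its untreated arrays were close together.

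**Figure D3:**
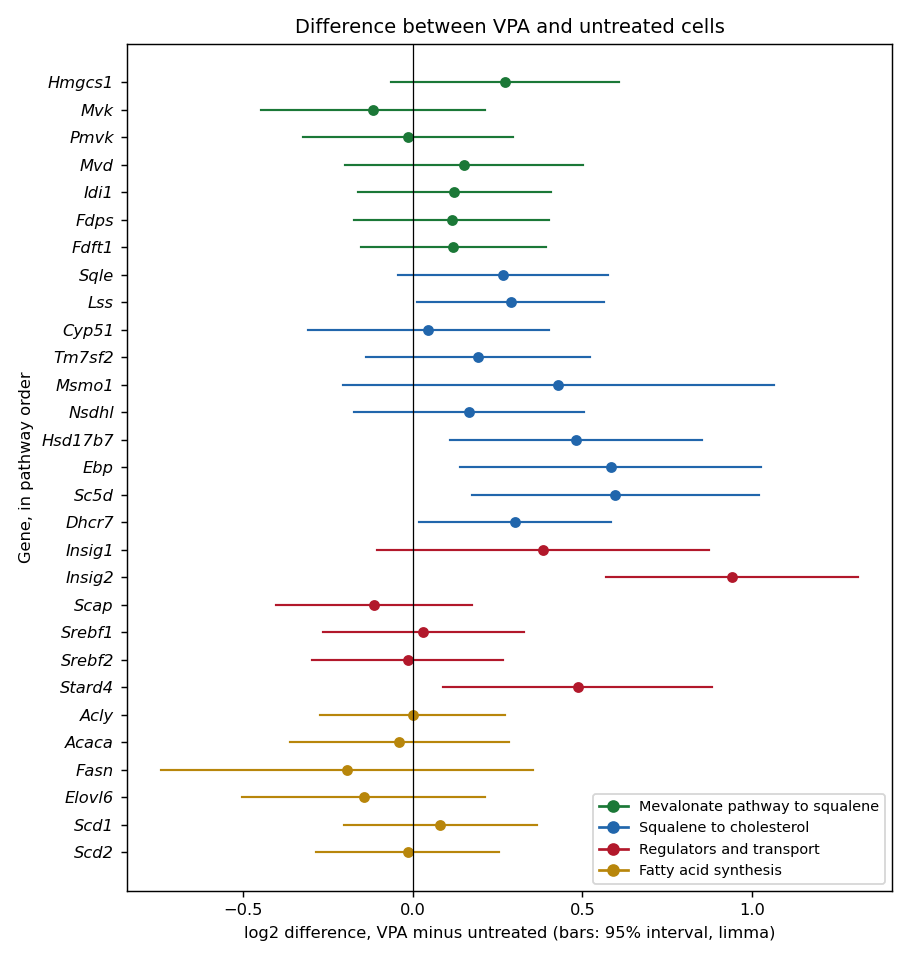
Points give the log2 difference, VPA minus untreated (x axis), of each of the 29 members in pathway order (y axis), and bars give its 95% interval from limma. The interval of Insig2 runs from 0.57 to 1.31, those of Lss, Hsd17b7, Ebp, Sc5d, Dhcr7 and Stard4 also lie above 0, and the other 22 cross it.

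Among the regulators, Insig2 stood apart. It read 7.31 and 7.02 in untreated cells and 8.04 and 8.16 with VPA, that is 7.16 ± 0.21 against 8.10 ± 0.083 (SD, n = 2). The log2 difference was 0.94 ± 0.14 (SE), with a 95% interval of 0.57 to 1.31, an unadjusted p of 0.00132 and an adjusted p of 0.462 in limma. It ranked 78 of 35556 probe sets by p, and 7 of the 19938 represented genes, itself among them, were higher by at least as much. The gap between the nearest arrays of the groups, 0.736, exceeded the spread within either group. With each array left out the log2 difference lay between 0.80 and 1.09, and after a second quantile normalization it was 0.87. Its adjusted p lay between 0.116 and 0.93 over the alternatives.

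Insig1 encodes the related protein that SREBPs themselves induce, and serves as a readout of their activity in many cells. It read 8.90 and 8.45 untreated and 8.95 and 9.17 with VPA, a log2 difference of 0.38 ± 0.19 (SE). The higher untreated array lay only 0.051 below the lower VPA array, and without untreated replicate 2 the difference was 0.16. Whether Insig1 and Insig2 differed from each other in response was not tested.

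The genes for the proteins that Insigs restrain were not higher without overlap in their array signal. Srebf1 read 6.21 and 6.34 untreated and 6.35 and 6.26 with VPA, a log2 difference of 0.031 ± 0.12 (SE) with a 95% interval of −0.27 to 0.33, and its sign turned after a second quantile normalization. Srebf2 read 8.48 and 8.58 untreated and 8.55 and 8.49 with VPA, a difference of −0.015 ± 0.11 with an interval of −0.30 to 0.27. Scap, their escort, read 6.93 and 7.01 untreated and 6.80 and 6.91 with VPA, a difference of −0.11 ± 0.11. The interval of Scap ran from −0.40 to 0.17, so differences of that size cannot be told from 0 here.

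Stard4 encodes a small carrier of cholesterol between membranes and is a known SREBP target. It read 7.03 and 6.69 untreated and 7.39 and 7.30 with VPA, a log2 difference of 0.49 ± 0.15 (SE) and an adjusted p of 0.504 in limma. The groups were 0.27 apart at their nearest arrays. Without untreated replicate 2 the difference was 0.31, and it lay above 0 with each array left out.

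The fatty acid genes gave no such picture. Acly, which supplies cytosolic acetyl-CoA from citrate, read 8.998 and 9.013 untreated and 9.04 and 8.97 with VPA, a log2 difference of −0.0004 ± 0.11 (SE). Acaca, acetyl-CoA carboxylase, differed by −0.040 ± 0.12 on its brighter probe set. Its dimmer probe set read 5.64 and 5.45 untreated and 5.82 and 6.01 with VPA. The difference there was 0.37 ± 0.14, with an unadjusted p of 0.0409 in limma, so the probe sets disagree. The mean of both differed by 0.17.

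Fasn, fatty acid synthase, was the most variable member of this group. It read 8.15 and 8.60 untreated and 8.361 and 7.995 with VPA, a log2 difference of −0.19 ± 0.21 (SE). Its sign turned without untreated replicate 2. Elovl6, which lengthens palmitate, differed by −0.15 ± 0.14. The desaturase genes Scd1 and Scd2, whose products make oleate and palmitoleate, differed by 0.082 ± 0.11 and −0.015 ± 0.10, and the arrays of Scd2 spanned only 8.48 to 8.52. Of the 6 genes, on the probe sets of highest mean signal, 1 mean was higher and 5 were lower, and 0 passed an unadjusted p of 0.05. Means were higher for 53.7% of represented genes and for 4765 of the 7312 bright ones. The lower means of Acly, Acaca, Fasn and Scd2 differed by less than their SE. The dimmer probe set of Acaca did pass it. The difference between this group and the late sterol enzymes was not tested.

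**Figure D4:**
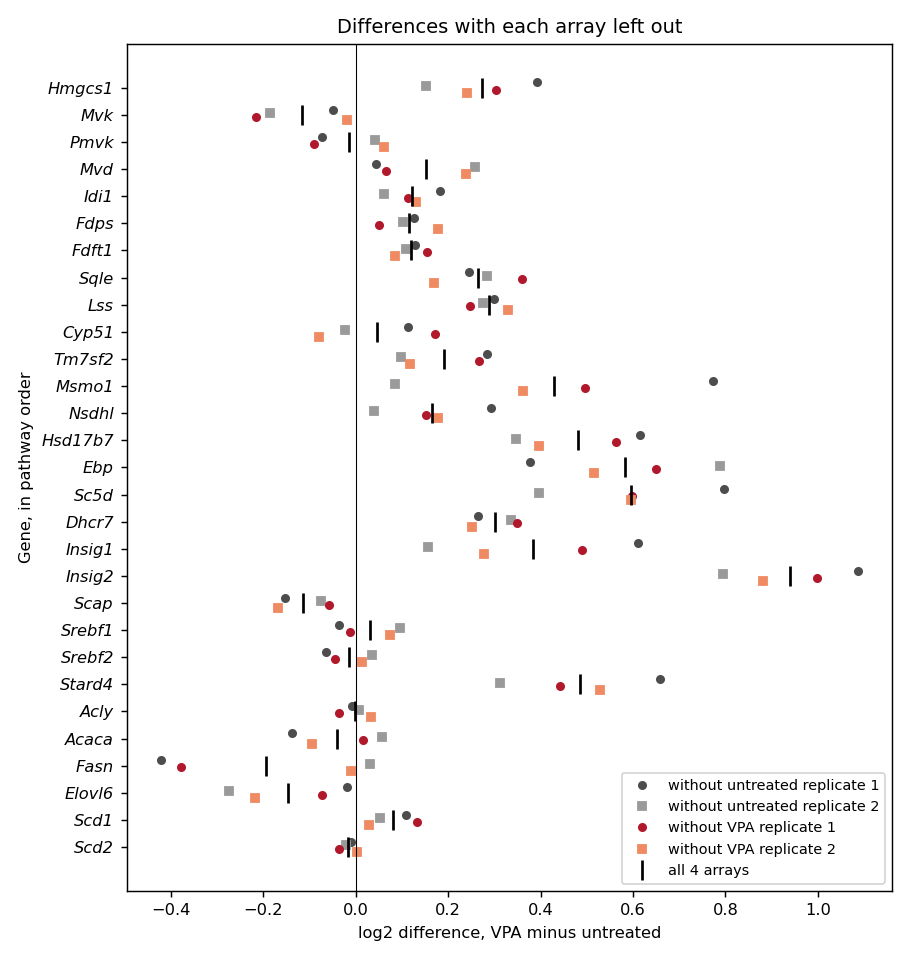
Coloured points give each member's log2 difference, VPA minus untreated (x axis), with 1 of the 4 arrays left out, and the black tick gives it with all arrays, for the members in pathway order (y axis). Insig2 stays between 0.80 and 1.09, whereas Msmo1 runs from 0.086 to 0.77 with the untreated array that is left out.

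Untreated replicate 2 moved with several of these results. It was the lowest of the 4 arrays for 14 of 29 members and for 30.2% of all represented genes. The members for which it lay furthest below its fellow were Msmo1, Insig1, Sc5d, Stard4 and Insig2. Without it 24 of 29 member means were higher with VPA, without untreated replicate 1 the number was 19, and 18 members were higher with every choice of array left out. The part of this array in the differences is given by the values without it, above.

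The companion genes are others of the same pathways, 65 names listed by role, of which 53 were measured. They too were chosen with earlier results of these data known. The companion names that were not measured were not analysed here. At an unadjusted p under 0.05, 10 were higher with VPA and 1 was lower, and 0 passed the adjusted test. Higher at that p were 5.76% of all probe sets, 5.9% of represented genes and 10.4% of the bright ones. Lower at it were 3.43%, 2.71% and 3.16%. The count of higher genes was 6 after a second quantile normalization, where 1670 of 35556 probe sets were higher. Without untreated replicate 2 the median log2 difference of the companions was 0.10, and without VPA replicate 2 it was 0.14. Of the 53 means 45 were higher and 8 lower (44 and 9 after the second normalization, 43 and 10 after centring each array), with a median log2 difference of 0.15 (0.093 after the second normalization). Means were higher for 53.7% of represented genes and for 4765 of the 7312 bright ones (3973 after the second normalization, 4703 after centring). The companions lay between percentiles 13.8 and 96.1 of probe sets by mean signal.

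The list of fatty acid supply, elongation and desaturation held 20 measured genes, with a median log2 difference of 0.15 (0.092 after the second normalization). Higher at that p were 5 of them (3 after that normalization), where 5.9% of represented genes and 10.4% of bright ones were. Hacd3, a dehydratase of the elongation cycle, read 6.57 and 6.30 untreated and 7.07 and 7.23 with VPA, a log2 difference of 0.72 ± 0.14 (SE). Elovl1, the elongase of very long saturated chains, read 5.98 and 6.03 untreated and 6.49 and 6.63 with VPA, a difference of 0.55 ± 0.11. Elovl5, which extends polyunsaturated chains, differed by 0.55 ± 0.16, Elovl4 by 0.39 ± 0.13 and Elovl7 by 0.35 ± 0.12. All 5 lay above without overlap. Their adjusted p in limma ran from 0.472 to 0.520.

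Other genes of the elongation cycle spanned a range. Hacd2, a second dehydratase gene, lay above without overlap with a log2 difference of 0.43 ± 0.19 (SE), and Hacd1 differed by −0.11 ± 0.14. Tecr, the reductase that ends the cycle, differed by 0.049 ± 0.11, and Hsd17b12 by 0.17 ± 0.14. The desaturase gene Fads2 differed by 0.065 ± 0.11. Elovl3 lay at 2.94 in both groups, at percentile 28.9 of probe sets.

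Among 11 measured genes of fatty acid activation and glycerolipids, 3 more were higher at an unadjusted p under 0.05. Of represented genes 5.9% were, and of the bright ones 10.4%. Lpin1, a phosphatidate phosphatase and SREBP target, read 6.15 and 6.05 untreated and 6.51 and 6.57 with VPA, a log2 difference of 0.44 ± 0.11 (SE). Dgat1, which forms triglyceride, differed by 0.39 ± 0.12, and Gpam, which adds the first acyl chain to glycerol phosphate, by 0.34 ± 0.12. Dgat2 and Agpat2 overlapped between groups.

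Of the 11 measured genes that handle sterol rather than make it, 9 means were higher with VPA and 2 lower. Of all represented genes 53.7% had a higher mean. Lipa, the lysosomal lipase that frees cholesterol from lipoprotein esters, had the largest difference of the companions, 0.97 ± 0.11 (SE) on the log2 scale. Its values were 5.35 and 5.47 untreated and 6.40 and 6.38 with VPA, with an adjusted p of 0.462 in limma. Npc1 and Npc2, which pass that cholesterol out of the lysosome, were higher on both VPA arrays by 0.27 ± 0.12 and 0.19 ± 0.12. Scarb1, a lipoprotein receptor, was higher by 0.39 ± 0.15. Abca1, which exports cholesterol, was the single companion lower at an unadjusted p under 0.05: it read 5.54 and 5.82 untreated and 5.27 and 5.13 with VPA, a difference of −0.48 ± 0.14. It kept that p when untreated replicate 1 was left out and lost it when any other array was. Nr1h3, a sterol-sensing receptor that controls Abca1, differed by 0.0019 ± 0.14 at a low signal.

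Of the companions that cut, hold or degrade SREBP and Insig proteins, 5 were measured and 0 passed an unadjusted p of 0.05. Mbtps1, the first protease of SREBP cutting, differed by 0.10 ± 0.12 (SE) on the log2 scale, and Rnf145, a ubiquitin ligase of the sterol pathway, by 0.15 ± 0.11. Among other enzymes, Lbr, which shares a sterol reductase step with Tm7sf2, read 9.89 and 9.18 untreated and 10.09 and 10.06 with VPA. Its log2 difference of 0.54 ± 0.25 was 0.19 without untreated replicate 2. Ggps1, which feeds protein prenylation, differed by 0.34 ± 0.16.

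**Figure D5:**
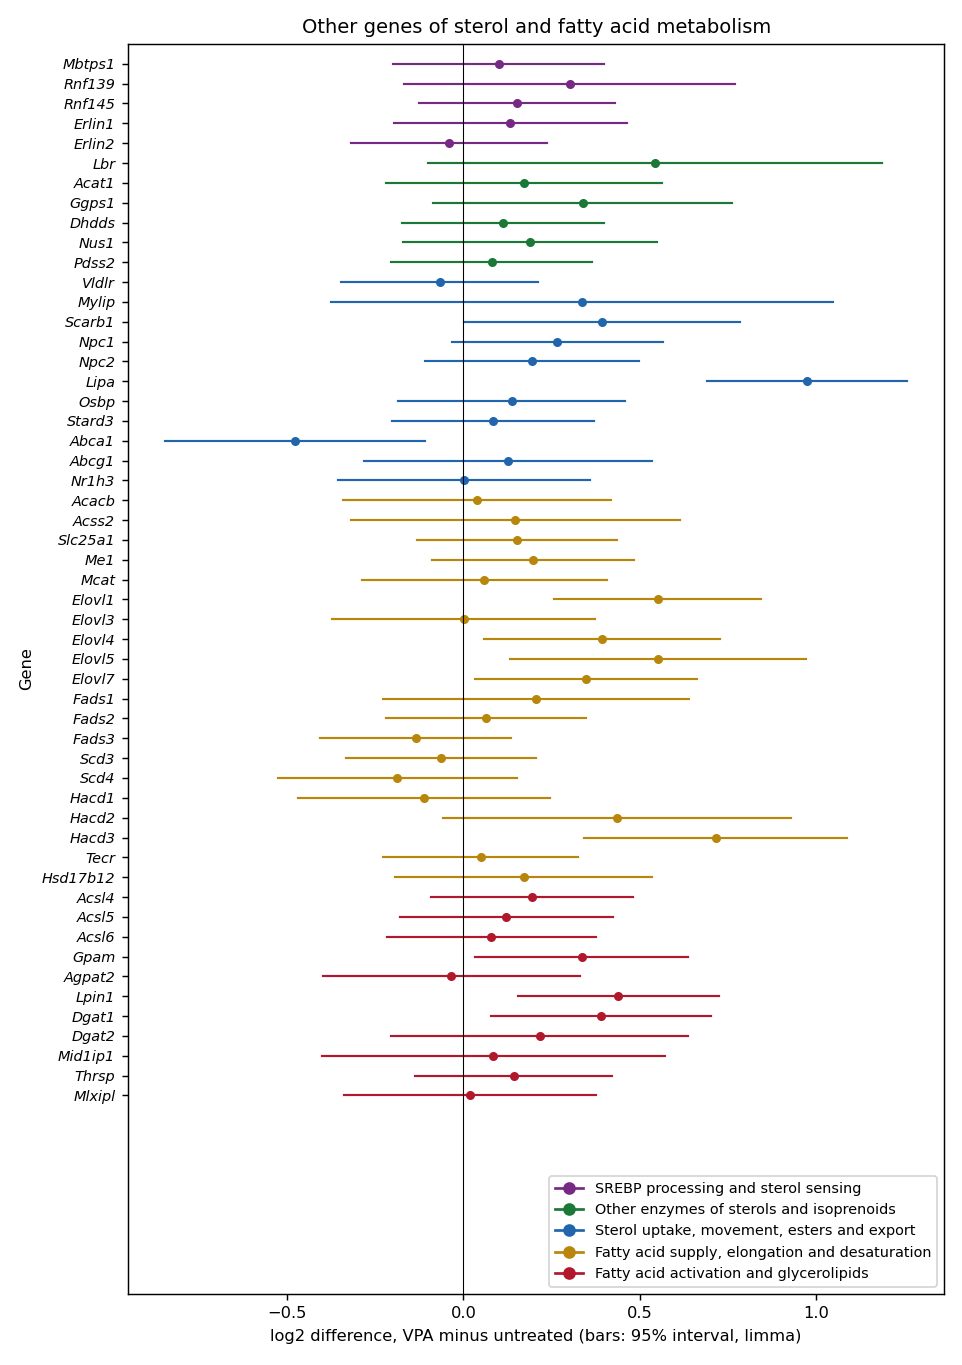
Points give the log2 difference, VPA minus untreated (x axis), of the 53 measured companion genes by role (y axis), and bars give the 95% interval from limma. Lipa, Hacd3 and Elovl1 have the intervals farthest above 0 and Abca1 has the single interval wholly below it.

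The arrays were checked against cell type markers. The 10 embryonic stem cell markers lay between percentiles 88.1 and 99.7 of probe sets. Of 12 fibroblast markers 10 lay above the median signal, from Pdgfrb at percentile 52.0 to Col1a1 at 79.0 and Sparc at 93.5. Lum and Postn lay below it, at percentiles 2.7 and 27.3. Linear signals summed over the stem cell list were 19236 and 17334 untreated and 17803 and 18255 with VPA, and over the fibroblast list 949 and 1019 untreated and 891 and 848 with VPA. Such sums follow their brightest genes, Sparc in the fibroblast list and Dppa5a and Tdgf1 in the stem cell list. Sparc read 9.092 and 9.185 on the log2 scale untreated and 8.894 and 8.857 with VPA. Without overlap 6 stem cell markers lay below and 1 above, where 15% and 35.9% of the bright genes did. Of the fibroblast markers 3 lay below and 2 above, where 18.1% and 24.1% of represented genes did. Of the stem cell markers 7 means were lower and 3 higher with VPA, and of the fibroblast markers 8 were lower and 4 higher (9 and 3 after a second quantile normalization). The single fibroblast marker past an unadjusted p of 0.05 was higher, Thy1, by 0.31 ± 0.12 (SE) on the log2 scale, and after that normalization 0 were past it. Nanog and Utf1, both markers of the undifferentiated state, were lower at an unadjusted p under 0.05, by log2 differences of −0.48 ± 0.14 and −0.33 ± 0.11 (SE), with adjusted p of 0.503 and 0.515 in limma. In such bulk RNA fewer cells of a type and less RNA per cell cannot be told apart, and the part of feeder RNA or of stem cell state in the sterol gene differences was not tested. The 6 markers of liver-like endoderm all lay below the median signal, with sums of 58 and 57 untreated and 54 and 54 with VPA. The sums of the 6 adipocyte markers were 87 and 86 untreated and 96 and 91 with VPA. Of these Lpl and Cebpa lay above it, and Lpl differed by 0.28 ± 0.11 (SE) on the log2 scale, while Adipoq, Fabp4 and Plin1 were low in both groups.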

How the data were processed

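Per the submitters' processing notes the arrays were summarised by RMA (Affymetrix Expression Console 1.1). The authors deposited the resulting log2 values, which hold a single value for each probe set on each array. RMA corrects background, quantile-normalizes and summarises probes, and its output cannot be compared between probe sets as amounts. The build, and the arrays normalized jointly, were not given in the sources used here. Values were analysed as deposited on 35556 probe sets and 4 arrays, and array medians ran from 3.80 to 3.82. Their number limits the precision.

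Symbols came from the platform annotation (21789 probe sets with 1 symbol, 1621 with several, 12146 with none). VPA was compared with untreated by lmFit and eBayes of limma 3.58.1 (R 4.3.3), two-sided, with treatment as the only term. The 2 residual degrees of freedom and 2.93 from the moderation set the intervals. An exact permutation test of 2 against 2 cannot give a p below 0.33. Scripts were tested on simulated data. Members and lists were chosen with earlier results of these data known. Named are all members and the companion genes at an unadjusted p under 0.05, with further companions added for context after their values were seen. Alternatives were a replicate block, 2 rescalings, a signal filter, trend and robust moderation, probe set averaging and each array left out.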

Additional observations from a re-analysis of the deposited data

How the results depend on the processing

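No member passed the adjusted test under any of the 10 alternatives (smallest adjusted p 0.116 in limma), and 0 probe sets did under any of those fitted over probe sets, that is all but the averaging of a gene's probe sets. Of 290 pairs of member and alternative, 273 kept the sign of the difference, and 21 of 29 members kept it throughout. A second quantile normalization turned Cyp51 to −0.032 and Srebf1 to −0.047, and averaging probe sets turned Acaca to 0.17. With each array left out, differences spanned 0 in Pmvk (−0.091 to 0.061), Cyp51 (−0.080 to 0.17), Srebf1 (−0.035 to 0.097), Srebf2 (−0.065 to 0.035), Acly (−0.035 to 0.034), Acaca (−0.137 to 0.058), Fasn (−0.42 to 0.032) and Scd2 (−0.035 to 0.004). The second normalization gave 4 members below without overlap, where 1558 of the 7312 bright genes were. It gave medians of 0.078 over all members, 0.065 in the mevalonate group and −0.097 in the fatty acid group. Averaging probe sets gave medians of 0.15 over all members and −0.008 in the fatty acid group. Without the dim probe sets 764 were lower at an unadjusted p under 0.05, with fewer tested. At that p, 6 companions were higher after the second normalization and 6 with the replicate block. Of the 35556 probe sets, 1670 and 1677 were higher there.

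Over the same reduced sets, the members higher at that p numbered 1 to 7, those above without overlap 17 to 21 and those below 3 to 6, a count that fewer arrays make easier to reach. Medians ran from 0.097 to 0.15 over all members, 0.065 to 0.13 in the mevalonate group, 0.28 to 0.36 in the late sterol group, 0.13 to 0.29 among regulators and −0.035 to 0.019 in the fatty acid group. Over all probe sets, 1181 to 2524 were higher and 646 to 1718 lower, and companions numbered 3 to 11 higher and 0 to 1 lower. The share of all genes without overlap was not counted in these sets. The member counts without overlap there thus cannot be read against other genes, and no conclusion is drawn from them. Where a group is left with 1 array, it is assumed to vary like the other group. The cause of these shifts was not tested.

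The arrays share only a replicate number: the differences between replicates 1 and 2 correlated at −0.097 between the groups over probe sets. With the replicate number as a block, 5 members were higher at an unadjusted p under 0.05, where 1677 of 35556 probe sets were. Insig2 then had an adjusted p of 0.677 in limma.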
